A study of Mus musculus with 6 samples.

Results

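Purinergic and adenosine signalling was described through 10 mouse genes of the 49671 in the count table. They were the ATP-gated channels P2rx4 and P2rx7, the G protein-coupled nucleotide receptors P2ry1, P2ry2 and P2ry14, the adenosine receptors Adora1, Adora2a and Adora2b, and the ectoenzymes Entpd2 and Nt5e. These genes were selected on their membership of the pathway with earlier results of the same libraries in view, so their levels and fold changes are a description, and no p-value is given for a single one of them.

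The libraries came from neurospheres, free-floating clonal aggregates that neural stem cells of the adult subventricular zone (SVZ) form in medium with EGF and FGF. 3 libraries were labelled Tet3-Gfap control and 3 were labelled Tet3-Gfap cre. In this model, mice with a Tet3 gene whose exon 5 lies between loxP sites were crossed with mice carrying 1 copy of a Cre transgene under the Gfap promoter, a promoter active in astrocytes and in the stem cells of the SVZ, so recombination depends on a cell or its forebears having used that promoter. The paper gives control mice as having loxP sites in each Tet3 copy and no Cre transgene. Its cre mice had the same Tet3 copies and the transgene, and mice were kept on a C57BL6 background. The mice were adults of 2 to 4 months, and the SVZ of 2 animals was pooled to start each culture. The labels give neither the genotype of single animals nor whether the 3 libraries of a group were separate cultures, so the p-values measure the spread between these libraries, which may be technical. The comparison asked which transcripts differ in neural stem cells with the Tet3 deletion, Tet3 being an enzyme that oxidises methylated cytosine.

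Total counts lay between 29660398 and 35405326 per library. CPM is the count scaled to library size. Under the control label, libraries 1, 2 and 3 had Tet3 at 114, 136 and 60.3 CPM, and under the cre label at 61.3, 60.5 and 116 CPM. The library labelled control 3 therefore had a Tet3 level like those of cre 1 and cre 2, and the library labelled cre 3 one like those of control 1 and control 2, which goes against both labels. These are counts over the whole gene and do not show exon 5 itself. Each result is given over all 6 libraries by their labels and again without control 3 and cre 3, over the 4 libraries that keep control 1 and control 2 with cre 1 and cre 2. Markers of neural stem cells were high in every library (Vim 3100 to 4120 CPM, Fabp7 1720 to 2380 CPM), whereas the 12 microglial markers summed to 0.311 to 6.92 CPM. The highest microglial sum and the highest mesenchymal sum, 28.8 CPM against 1.47 to 6.56 CPM elsewhere, were both in the library labelled cre 1.

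Cells release ATP and other nucleotides, which act on P2X channels and P2Y receptors. Ectonucleotidases on the cell surface strip the phosphates in steps, and CD73, the product of Nt5e, makes the last step from AMP to adenosine. Adenosine then acts on its own receptors, of which the Adora1 product inhibits adenylyl cyclase and the Adora2a and Adora2b products stimulate it, until transporters and adenosine kinase remove it. In the SVZ niche, nucleotides and adenosine are known as signals between progenitors, astrocytes and other cells.

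The promoters of Adora2b, P2rx7 and Adora1 are shown because P2rx7 and Adora2b are the members that were called in the 4 libraries and Adora1 is the most abundant adenosine receptor, and because Tet3 acts on cytosines in CpG pairs. Each run is the 250 bases before a RefSeq transcription start on GRCm38.p6. It is read 5′ to 3′ on the strand of the gene, with CpG pairs (CG) in capitals. RefSeq listed 2 starts each for P2rx7, Adora1 and P2ry2 and 4 for P2ry14, and the counts are for 1 start per gene. The P2rx7 window ends at 122643926, inside the annotated gene, which starts at 122643911. The Adora2b window is chr11:62248734-62248983 on the plus strand, the P2rx7 window is chr5:122643677-122643926 on the plus strand, and the Adora1 window is chr1:134235458-134235707 on the minus strand.
Adora2b: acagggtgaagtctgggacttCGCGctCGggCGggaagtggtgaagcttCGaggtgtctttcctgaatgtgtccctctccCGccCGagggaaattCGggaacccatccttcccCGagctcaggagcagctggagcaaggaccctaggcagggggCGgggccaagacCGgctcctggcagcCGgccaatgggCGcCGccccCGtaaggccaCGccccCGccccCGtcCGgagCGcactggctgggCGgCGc
P2rx7: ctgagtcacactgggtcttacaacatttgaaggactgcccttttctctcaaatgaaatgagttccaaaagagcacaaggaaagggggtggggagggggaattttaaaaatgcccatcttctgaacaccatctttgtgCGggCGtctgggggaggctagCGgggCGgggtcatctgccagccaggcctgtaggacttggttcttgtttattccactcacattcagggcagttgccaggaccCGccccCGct
Adora1: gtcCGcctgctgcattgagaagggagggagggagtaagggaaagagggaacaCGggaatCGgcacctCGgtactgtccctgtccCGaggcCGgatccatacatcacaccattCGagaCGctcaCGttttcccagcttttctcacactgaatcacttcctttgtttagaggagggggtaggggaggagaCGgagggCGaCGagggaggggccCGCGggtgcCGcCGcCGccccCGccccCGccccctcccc
The Adora2b window held 22 CpG pairs, and 14.8% of all 32851 promoters of the RefSeq table held at least as many. The Adora1 window held 19, reached by 19.7% of promoters, and the P2rx7 window held 6, which was also the median of all promoters. The GC box, GGGCGG or CCGCCC on the other strand, each with 1 CpG inside it, was found 6 times before Adora2b, 3 times before Adora1 and 2 times before P2rx7. At least 1 GC box was present in 32.7% of all promoters and in 7 of the 9 members with a promoter in the table. Adora2a was not matched. Among the other members, Nt5e, P2ry2 and P2ry1 had 21, 21 and 20 CpG pairs, P2rx4 had 13, Entpd2 had 9 and P2ry14 had 4. No methylation was measured in these libraries, and a match is a description of the letters only.

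Per length, the A1 receptor gene and P2rx7 were the main purinergic receptor transcripts of the cultures. Adora1 had 13.6 ± 4.68 CPM per kilobase of exon (SD over the 6 libraries) and P2rx7 had 12.6 ± 6.35. These values overlapped, so the order of the 2 genes was within their spread. P2ry1 followed with 2.08 ± 0.176 CPM per kilobase, then Adora2b with 1.16 ± 0.903 and P2rx4 with 1.11 ± 0.171. Over the libraries Adora2b ran from 0.23 to 2.22 CPM per kilobase. It thus overlapped both P2ry1 (1.78 to 2.31) and Nt5e (0.0767 to 0.474), so the rank of its mean does not hold in every library. With the longest transcript in place of the union of exons, P2rx4 had 2.01 and Adora2b 1.16 CPM per kilobase, so their order depended on the length used. Nt5e (0.261 ± 0.133), Adora2a (0.211 ± 0.0485) and P2ry2 (0.161 ± 0.0568) came next, and these 3 overlapped over the libraries. All libraries of P2ry14 were below those of P2ry2. P2ry14 had 0.0302 ± 0.00544 CPM per kilobase and Entpd2 0.0156 ± 0.0319, the lowest levels of the 10.

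**Figure D1:**
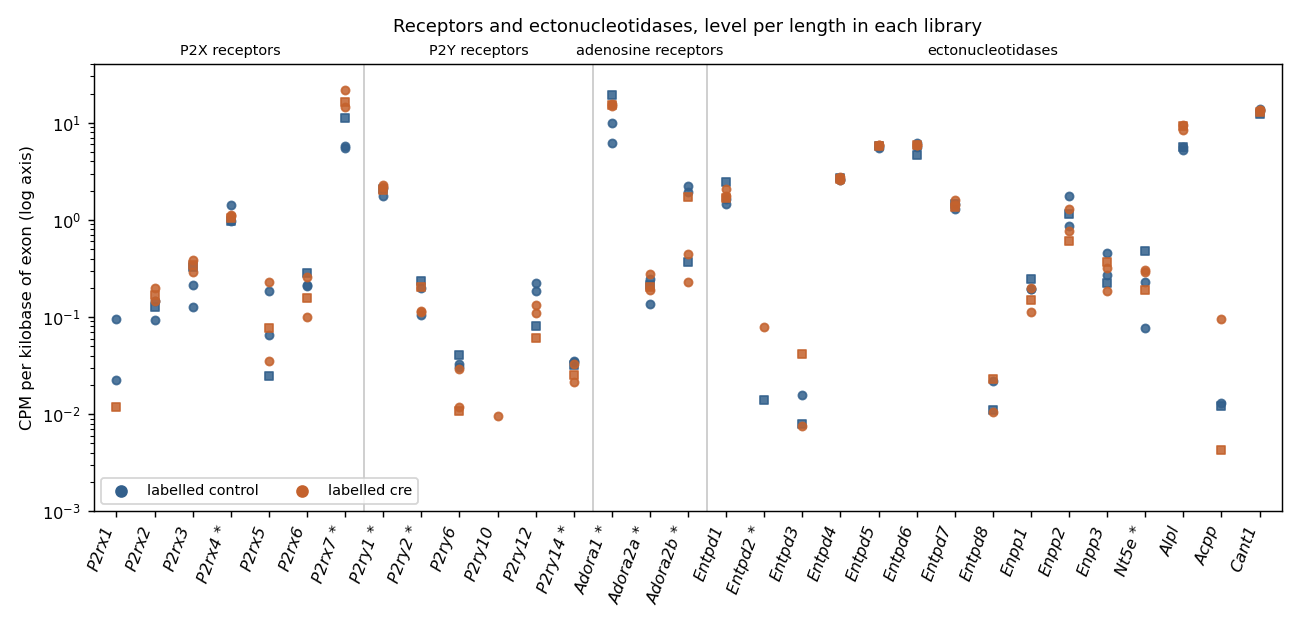
Level of each P2X, P2Y and adenosine receptor and each ectonucleotidase gene with at least 1 count, in CPM per kilobase of exon on a log axis, with 1 point per library. Members carry an asterisk, blue is labelled control, orange is labelled cre, squares are control 3 and cre 3, and libraries at 0 are not drawn. Adora1 and P2rx7 lie highest among the receptors, at 6.17 to 19.2 and 5.47 to 21.8 CPM per kilobase.

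By the labels, none of the 9 members tested passed edgeR's quasi-likelihood test at an adjusted p under 0.05, and neither did any other gene. The background share called was 0.0% of 16916 genes, and 846 genes had an unadjusted p under 0.05. By other tools, DESeq2 called 70 genes and no member, limma-voom called 0, and edgeR's exact test called 68 genes, P2rx7 among them. Levels of the groups did not overlap for 1 member of 9, P2rx7, beside 9.47% of all genes tested. Without control 3 and cre 3, P2rx7 was called higher and Adora2b lower in cre. This was 2 of 9 members beside 0.459% of 17003 genes, 36 of which were higher and 42 lower. In that fit levels did not overlap for 6 of 9 members, beside 40.6% of all genes, a share that 2 libraries against 2 reach often. The median log2 fold change (cre over control) of the 9 members was 0.00 by the labels and 0.20 in the 4 libraries, beside -0.005 and -0.001 over all genes. Entpd2 passed the filter on low counts in neither fit. These libraries are bulk RNA, in which fewer cells of a type and less RNA per cell cannot be told apart.

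**Figure D2:**
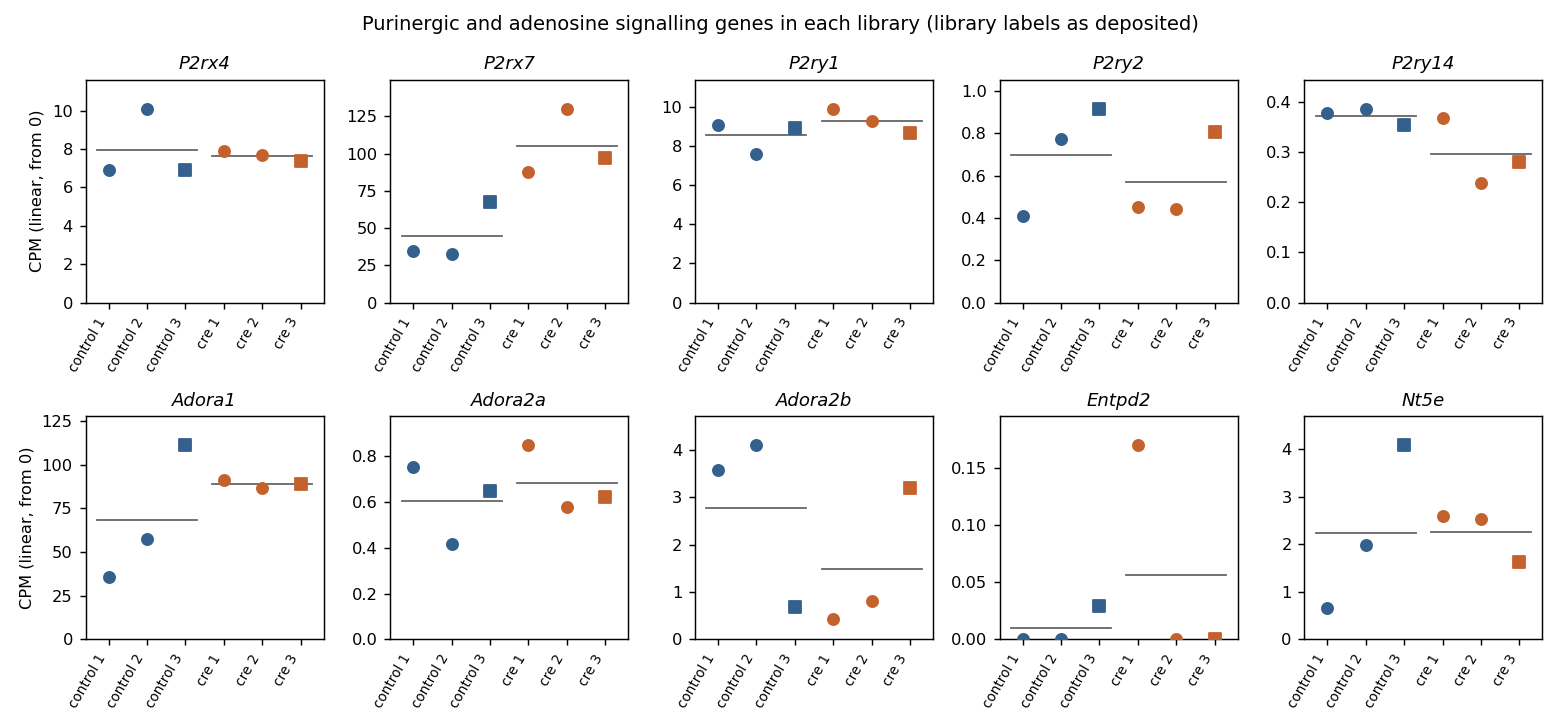
CPM of each member in each library on linear axes from 0, with library labels as deposited. Blue points are labelled control, orange points labelled cre, squares mark control 3 and cre 3, and grey lines are group means over 3 libraries. Only P2rx7 has its 3 cre libraries above its 3 control libraries.

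The P2X receptors are cation channels opened by ATP, and P2rx7 encodes the member that needs high ATP and can pass large molecules on long stimulation. The gene spans chr5:122643911-122691432 on the plus strand of GRCm38. Under the control label, libraries 1, 2 and 3 gave P2rx7 at 34.7, 32.7 and 67.5 CPM, from 1104, 1100 and 2287 counts. Under the cre label it was at 87.6, 130 and 97.2 CPM, from 3099, 3821 and 3128 counts. Every cre library was above every control library, and control 3 lay between the other control libraries and cre 1. The group means were 45.0 ± 19.6 and 105 ± 22.5 CPM (SD, n = 3 each), a log2 fold change of 1.22 (SE 0.29). In the 4 libraries P2rx7 was called higher in cre, at 109 against 33.7 CPM, a log2 fold change of 1.69 (SE 0.18). Leaving out control 3 alone gave 1.64, and P2rx7 was then called over the 5 remaining libraries. A short microRNA gene, Mir8115, shares 2.0% of the P2rx7 exon bases and had 0 counts. The astrocyte marker Slc1a2, a glutamate transporter gene picked out after its values were seen, also had every cre library above every control library, from 69.9 CPM in control 1 to 233 CPM in cre 2, and its part in the P2rx7 values was not tested. The 7 astrocyte markers, all tested, summed to 1770 to 2440 CPM in the control libraries and 1490 to 2000 CPM in the cre libraries. By the labels 4 of the 7 had a positive log2 fold change, and Slc1a3, S100b and Aldh1l1 went the other way (-0.26, -0.58 and -0.58). None was called by the labels. Gfap, whose counts may include the Cre transgene, was called in the 4 libraries.

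P2rx4, a channel of microglia, neurons and other cells, lies downstream of P2rx7 at chr5:122707544-122729738 on the same strand. P2rx4 was at 6.91, 10.1 and 6.91 CPM in control 1, 2 and 3 and at 7.91, 7.68 and 7.37 CPM in cre 1, 2 and 3. The cre values all lay inside the control range. Its log2 fold change was -0.06 (SE 0.17) by the labels and -0.13 (SE 0.21) in the 4 libraries, and its highest library was 1.47 times its lowest, against 3.99 times for P2rx7.

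The P2Y receptors were low apart from P2ry1. P2ry1, an ADP receptor that raises intracellular calcium, lies at chr3:61002795-61008982 on the plus strand. It was at 9.08, 7.63 and 8.95 CPM in control 1, 2 and 3 and at 9.92, 9.28 and 8.70 CPM in cre 1, 2 and 3. The groups overlapped through cre 3, and the highest library was 1.30 times the lowest, the narrowest range of the members tested. The log2 fold change was 0.12 (SE 0.12) by the labels and 0.20 (SE 0.15) in the 4 libraries. An opposite-strand gene, Gm37035, covers 23.1% of the P2ry1 exon bases and had at most 6 counts in a library.

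P2ry2, an ATP and UTP receptor at chr7:100996568-101012866 on the minus strand, had 13 to 31 counts per library. Its values were 0.408, 0.772 and 0.916 CPM in control 1, 2 and 3 and 0.452, 0.444 and 0.808 CPM in cre 1, 2 and 3, with full overlap. P2ry14, the receptor for UDP-glucose at chr3:59113855-59153618 on the minus strand, had 7 to 13 counts per library, at 0.377, 0.386 and 0.354 CPM in control 1, 2 and 3 and 0.367, 0.239 and 0.280 CPM in cre 1, 2 and 3. Control 3 was below cre 1, so these groups overlapped too. The log2 fold changes of P2ry2 were -0.30 (SE 0.41) by the labels and -0.40 (SE 0.48) in the 4 libraries. Those of P2ry14 were -0.32 (SE 0.33) and -0.31 (SE 0.51). Each of these values was smaller than its standard error.

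Adora2b, the low-affinity A2B adenosine receptor, had the widest range of the members. It lies at chr11:62248984-62266453 on the plus strand and has 1 annotated transcript. Under the control label, libraries 1, 2 and 3 gave Adora2b at 3.58, 4.10 and 0.679 CPM, from 114, 138 and 23 counts. Under the cre label it was at 0.424, 0.819 and 3.20 CPM, from 15, 24 and 103 counts. Control 1, control 2 and cre 3 were high, control 3, cre 1 and cre 2 were low, and no library lay between 0.819 and 3.20 CPM. By the labels the groups overlapped, at 2.79 ± 1.84 and 1.48 ± 1.50 CPM (SD, n = 3 each), with a log2 fold change of -0.91 (SE 0.82). Leaving out single libraries moved it between -2.18 without cre 3 and -0.46 without cre 1. In the 4 libraries Adora2b was called lower in cre, at 0.621 against 3.84 CPM, a log2 fold change of -2.64 (SE 0.36). The call was lost when control 1, control 2 or cre 1 was also left out, and with library sizes in place of TMM scaling, at log2 fold changes between -3.17 and -2.23 over the libraries left out. Over the 6 libraries the highest was 9.67 times the lowest, and 1.04% of the genes tested had a range of log2 CPM at least as wide.

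The 3 libraries with high Adora2b were those with Tet3 at 114 to 136 CPM, and the 3 with low Adora2b were those with Tet3 at 60.3 to 61.3 CPM. Nt5e divided the libraries in the opposite direction, with a smaller gap (0.660 to 1.99 against 2.53 to 4.08 CPM). The other members did not divide them in this way. The share of all genes that did so, in either direction, was not counted. For the labelled groups, also 3 libraries against 3, levels did not overlap for 9.47% of all genes tested. Gfap, the astrocyte marker whose promoter drives Cre, was at 0.503, 0.327 and 6.62 CPM in control 1, 2 and 3 and at 3.84, 3.52 and 0.280 CPM in cre 1, 2 and 3, the same division again in the opposite direction. Gfap is named after its values were seen, and the astrocyte list as a whole did not share this division. The paper describes the Cre transgene as holding the introns and exons of Gfap, less a small region. Gfap counts may therefore include transcripts of the transgene, whose part was not tested. Aldh1l1, another astrocyte marker, divided the libraries in the same direction as Adora2b. It was at 510, 434 and 400 CPM in control 1, 2 and 3. In cre 1, 2 and 3 Aldh1l1 was at 126, 351 and 420 CPM, so the gap, between control 3 and cre 3, was narrow. Aldoc, a further marker, divided the libraries in the direction of Gfap, also with a narrow gap. It was at 221, 240 and 471 CPM in control 1, 2 and 3. In cre 1, 2 and 3 Aldoc was at 334, 392 and 333 CPM. Slc1a3, the most abundant marker of the list, did not divide them, at 1620, 961 and 697 CPM in the control and 825, 997 and 920 CPM in the cre libraries. The part of astrocytes in the Adora2b values was not tested.

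**Figure D3:**
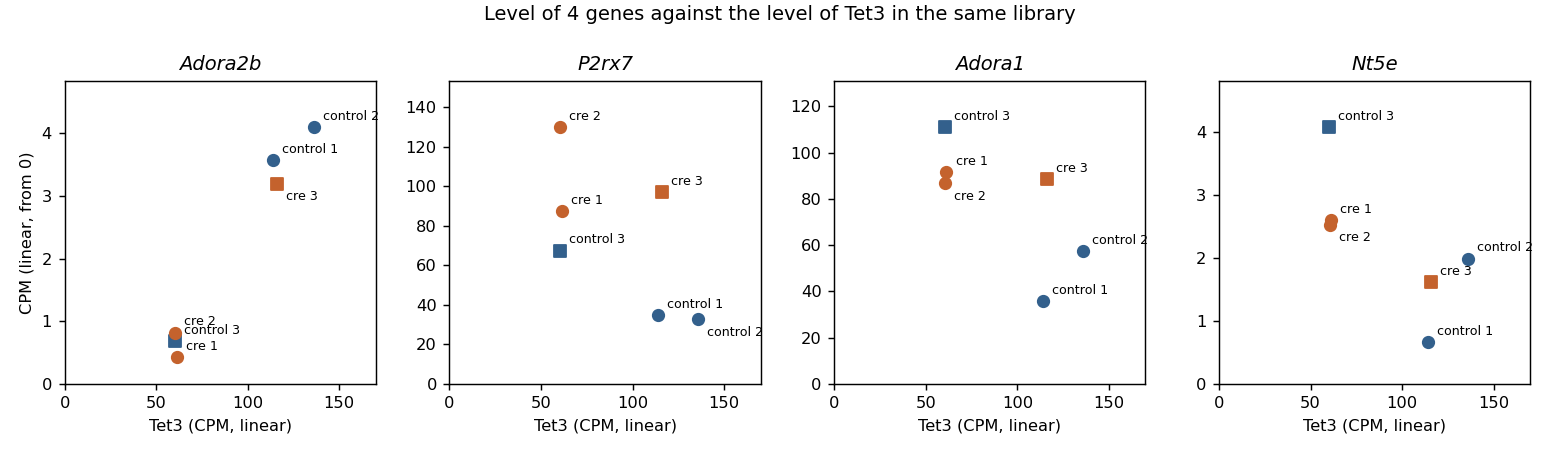
CPM of Adora2b, P2rx7, Adora1 and Nt5e against the CPM of Tet3 in the same library, with linear axes from 0 and each of the 6 libraries labelled. Squares are the libraries labelled control 3 and cre 3. Adora2b lies at 0.424 to 0.819 CPM in the 3 libraries with Tet3 near 60 CPM and at 3.20 to 4.10 CPM in the other 3, whereas P2rx7 is at 97.2 CPM in cre 3 and at 32.7 to 34.7 CPM in control 1 and control 2.

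Adora1, the high-affinity A1 receptor, lies at chr1:134199223-134235431 on the minus strand. Its level was 35.7, 57.5 and 111 CPM in control 1, 2 and 3, and 91.5, 86.7 and 88.7 CPM in cre 1, 2 and 3. The cre libraries were close together, and the control libraries held both the lowest values and the highest. The means were 68.1 ± 38.7 and 89.0 ± 2.45 CPM (SD, n = 3 each), a log2 fold change of 0.39 (SE 0.35). Leaving out single libraries moved it between 0.08 without control 1 and 0.93 without control 3. In the 4 libraries the values did not overlap, with a log2 fold change of 0.93 (SE 0.20), and Adora1 did not pass edgeR's quasi-likelihood test, while DESeq2, edgeR's exact test, a fit with no filter and the fit without control 2 called it. The opposite-strand gene Mybph shares 20.1% of the Adora1 exon bases and had at most 4 counts in a library.

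Adora2a, a stimulatory adenosine receptor at chr10:75316877-75334784 on the plus strand, had 14 to 30 counts per library. It was at 0.754, 0.416 and 0.650 CPM in control 1, 2 and 3 and at 0.848, 0.580 and 0.622 CPM in cre 1, 2 and 3. The groups overlapped, with a log2 fold change of 0.18 (SE 0.33) by the labels and 0.30 (SE 0.47) in the 4 libraries.

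**Figure D4:**
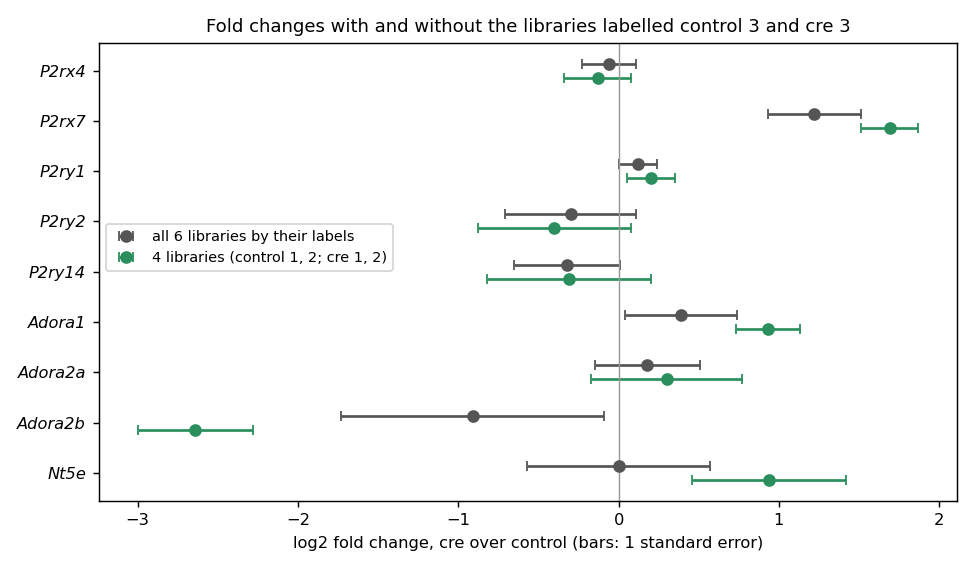
Log2 fold change of the 9 members tested, cre over control, with bars of 1 standard error. Grey is the fit over all 6 libraries by their labels, and green is the fit over control 1, control 2, cre 1 and cre 2. Adora2b moves from -0.91 to -2.64 and P2rx7 from 1.22 to 1.69 between the fits, while P2rx4 stays at -0.06 and -0.13.

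Of the ectoenzymes, Nt5e (CD73) at chr9:88327197-88372092 on the plus strand was the member with the widest range after Adora2b. Under the control label, libraries 1, 2 and 3 gave 0.660, 1.99 and 4.08 CPM, from 21, 67 and 138 counts. Under the cre label they gave 2.60, 2.53 and 1.62 CPM, from 92, 74 and 52 counts. Control 1 was lowest and control 3 highest, with the cre libraries inside the control range, and the means were 2.24 ± 1.72 and 2.25 ± 0.548 CPM (SD, n = 3 each). The log2 fold change was 0.00 (SE 0.57) by the labels and 0.94 (SE 0.48) in the 4 libraries, where it was not called. Leaving out single libraries moved the first value between -0.43 without control 1 and 0.75 without control 3, and the second between 0.36 without control 1 and 1.94 without control 2. Adora1 was likewise lowest in control 1 and highest in control 3. The mean absolute difference of the centred log2 CPM of Nt5e and Adora1 over the 6 libraries was 0.332, against 1.802 for Nt5e and Adora2b. That measure was 0.408 for Adora1 and P2rx7.

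Entpd2, an ectonucleotidase that turns ATP into ADP and is known in SVZ astrocyte-like cells, was close to absent. At chr2:25395874-25401321 on the plus strand it had 0, 0 and 1 counts in control 1, 2 and 3 and 6, 0 and 0 counts in cre 1, 2 and 3. The 6 counts gave 0.170 CPM, with an exact Poisson 95% interval of 0.0622 to 0.369 CPM that covers counting error only. A count of 0 allows a level of up to 3 counts, a one-sided limit of 0.0891 to 0.102 CPM in the 4 libraries at 0. The 6 counts lay in cre 1, the library with the highest microglial and mesenchymal sums, and the part of those cells was not tested. Of the 12 microglial genes 1 passed the filter, and Cx3cr1 was at 0 in 5 of 6 libraries, with 1 count in control 1. The microglial genes C1qa, C1qb and C1qc had 72, 56 and 50 counts in cre 1 and at most 3 in any other library. The microglial list summed to 0.325 to 0.802 CPM in the control libraries and 0.311 to 6.92 CPM in the cre libraries. The 8 mesenchymal and mural genes summed to 2.39 to 4.28 and 1.47 to 28.8 CPM. Npdc1, a gene on the same strand, shares 28.8% of the Entpd2 exon bases, so the few counts of Entpd2 are uncertain.

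The other genes of the pathway were a list of 72, of which 71 had a row in the table and 53 passed the filter by the labels. None was called in either fit by edgeR's quasi-likelihood test, with 2 of 53 at an unadjusted p under 0.05 by the labels and 5 of 54 in the 4 libraries, beside 846 of 16916 and 1910 of 17003 over all genes. DESeq2 called 1 by the labels (Alpl) and 2 in the 4 libraries, beside 70 of 16916 and 478 of 17003 over all genes. With edgeR's exact test 1 (Alpl) and 4 were called, beside 68 and 638 over all genes. By the labels the groups did not overlap for 6 of the 53, or 11.3%, beside the 9.47% of all genes. In the 4 libraries this was 20 of 54, or 37.0%, beside 40.6%. The list's log2 fold changes had a median of 0.02 over the labelled groups.

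By role, the other P2X receptors were P2rx6 at 0.396 to 1.12 CPM, P2rx3 at 0.356 to 1.07 CPM and 3 lower genes. Among the other P2Y receptors, P2ry12, the ADP receptor that marks microglia, was at 0.155 to 0.564 CPM and P2ry6, a UDP receptor, at 0.0311 to 0.118 CPM. Adora3, the remaining adenosine receptor, had 0 counts in all 6 libraries.

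Among the ectonucleotidases, Cant1 (53.8 to 60.5 CPM) and Entpd5 (33.2 to 35.9 CPM), which act mainly on UDP and GDP inside the secretory pathway, were the most abundant by CPM and varied little. Alpl, tissue-nonspecific alkaline phosphatase, can remove phosphates down to adenosine and is named after its values were seen. It was at 21.1, 22.8 and 22.7 CPM in control 1, 2 and 3 and at 33.7, 38.6 and 37.0 CPM in cre 1, 2 and 3. The groups did not overlap, and control 3 and cre 3 lay with the libraries of their label, unlike for Adora2b. The log2 fold change was 0.71 (SE 0.08) by the labels, with an adjusted p of 0.203 in edgeR's quasi-likelihood test with Benjamini-Hochberg adjustment. In the 4 libraries it was 0.72 (SE 0.11, adjusted p 0.058 by the same test).

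For release and removal, the connexin gene Gja1 (140 to 185 CPM) and the pannexin gene Panx1 (63.4 to 76.1 CPM) encode channels that pass ATP, and none of the 3 release genes tested was called. Adk, adenosine kinase, was at 52.9 to 65.0 CPM, and the equilibrative nucleoside transporter Slc29a1 at 31.2 to 42.0 CPM, among 7 removal genes with no call. The 29 G protein and effector genes tested, led by Prkar1a (511 to 589 CPM) and Gnai2 (465 to 549 CPM), had medians of 0.02 (labels) and -0.01 (4 libraries) for the log2 fold change, with no call.

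The profile of Adora2b over the 6 libraries was set beside those of 351 genes whose range of log2 CPM was at least 0.8 of its own. The nearest was Elavl4, a neuronal RNA-binding protein gene, with a mean absolute difference of centred log2 CPM of 0.260. Elavl4 was at 28.3, 18.8 and 4.37 CPM in control 1, 2 and 3 and at 3.36, 5.63 and 14.7 CPM in cre 1, 2 and 3, with the same 3 libraries high. Cyp2r1 (0.370), the transcription factor genes Zic1 (0.389) and Zic4 (0.394), and the homeobox gene Otx1 (0.401) came next. Cyp2r1 was at 0.0886 CPM in control 3 and 0.0283 CPM in cre 1, at or below the level of 3 counts. Counting error therefore weighs on its place. Among the members, none was near Adora2b, with differences of 1.144 to 1.802.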

How the data were processed

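Total RNA of neurosphere cultures was made into 6 stranded mRNA libraries. The deposited values are raw counts per gene, which the authors obtained with Subread and Rsubread on GRCm38.p5 with an Ensembl annotation. Their strand, multi-mapping and overlap settings, filter and test are not given in the sources used here. If counting ignored strand, reads of antisense partners cannot be told apart. The table held 49671 genes, 345 of them without a symbol.

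CPM used TMM-scaled library sizes. Differences were tested with edgeR 4.0.16 (R 4.3.3; quasi-likelihood test, filterByExpr, Benjamini-Hochberg over all genes tested), once by the labels and once without control 3 and cre 3. SE is the log2 fold change divided by the root of F. Alternatives were RLE and library-size scaling, no filter, 1 CPM, DESeq2 1.42.0, limma-voom (limma 3.58.1), edgeR's exact test, a replicate block and single libraries left out. Levels per length used the union of GENCODE M21 exons. The members and lists were chosen with earlier results of these data known. All 10 members were named. Of the other pathway genes, those called and the 2 of highest CPM per role were named, and of each marker list the 2 of highest CPM were eligible. The markers Gfap, Slc1a2, Aldoc, S100b, Cx3cr1, C1qb and C1qc lie outside this rule, as do the genes Alpl, Gnao1, Adcy2 and Itpr1. All of these were named after their values were seen. The 5 profiles nearest to the member of widest range were also named.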

Additional observations from a re-analysis of the deposited data

How the results depend on the processing

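By the labels, the count of members called was 0 and became 1 (P2rx7) with edgeR's exact test, and 0 to 1 with single libraries left out. The count of other pathway genes called was 0 and became 1 (Alpl) with DESeq2 and with the exact test. In the 4 libraries, the members called were 2 (P2rx7 and Adora2b), 1 with library-size scaling, 3 (Adora1 besides) with DESeq2, the exact test and no filter, and 1 to 2 with single libraries left out, the 2 without control 2 being P2rx7 and Adora1. In those smaller fits the lone library of a group is assumed to vary like the others. Other pathway genes called there were 0, and 2 with DESeq2 (Alpl, Adcy2), 4 with the exact test (Gnao1, Itpr1 besides), 6 with no filter and 0 to 3 with single libraries left out, the 3 being without control 2. Of the log2 fold changes of the 9 members tested, all 123 alternatives by the labels moved by less than 1 SD of log2 CPM within groups, a wide tolerance for Adora2b and Nt5e, and 7 of 105 moved further in the 4 libraries, each with a library left out. With single libraries left out, some uncalled values changed sign. P2rx4 reached 0.15 by the labels and 0.17 in the 4 libraries, and Adora2a reached -0.03 and -0.08. P2ry2 reached 0.13 in the 4 libraries. Nt5e, at 0.00 by the labels with all libraries, lay between -0.43 and 0.75. RLE scaling moved CPM by at most 0.163% and library sizes by at most 1.37%. Over all genes, 78 were called in the 4 libraries, and 478 with DESeq2, 638 with the exact test, 1325 with no filter, 169 with the replicate block and 297 without cre 2. By the labels, 18 were called without control 3 and 3 with no filter. The causes were not tested.

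Control and cre libraries share replicate numbers. Their deviations from the means of the labelled groups correlated between -0.089 and 0.008 over the 3 same-numbered pairs. Those means include control 3 and cre 3, whose Tet3 levels go against their labels, so the correlations cannot settle whether the numbers pair the libraries. The main fits took no pairing. With the replicate block, members called were 0 by the labels and 2 in the 4 libraries, and other pathway genes called in the 4 libraries were 2. Counting error weighs most on P2ry2, P2ry14, Adora2a and Entpd2, which had at most 31 counts in a library.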
